A study of Mus musculus with 2 samples.

Results

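The cell division genes are 40 mouse genes that dividing cells transcribe in S phase, G2 and mitosis. They were taken as a fixed list of gene symbols, and all 40 were found among the 33696 genes measured. 24 of them act in G2 and mitosis and are called mitotic members here, 15 act in DNA replication and are called S-phase members, and Stmn1 was kept apart from both lists. Their unique molecular identifiers (UMIs, counts of single RNA molecules) were followed through the cells of 2 single-cell RNA libraries of the 10x Genomics 3' kit.

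Both libraries came from mice with floxed Bicd2 alleles in which autoimmune hepatitis was induced with S-100, the supernatant of a liver preparation, emulsified with complete Freund's adjuvant. Each animal received 2.5 mg into the peritoneum every week for 3 weeks. The WT library is from Alb-WT Bicd2fl/fl mice, whose floxed gene is intact, and the KO library is from Alb-Cre Bicd2fl/fl mice, in which Cre under the albumin promoter deletes Bicd2 in hepatocytes. The sequenced cells were sorted living cells from an immune fraction; albumin is a hepatocyte gene. The series text describes immune cells of the liver, while the sample labels name peritoneal immune cells and a treatment abbreviated HFD; the tissue is therefore given here only as the labels give it. Age, sex and the number of pooled animals were not given in the sources used here. There was 1 library per genotype, so no difference below has a replicate check, no test was made, and each 95% interval covers counting error only.

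A dividing cell first switches on the enzymes that make DNA building blocks and the helicase that opens the double helix, then copies its genome, and later switches on the kinases, cyclins, kinetochore proteins and motor proteins that separate the chromosomes. E2F factors drive the first wave, and the MuvB complexes with B-MYB and FOXM1 drive the second. In an inflamed liver, activated T and NK cells divide where they meet antigen or cytokines, whereas immature neutrophils divide in the marrow and stop before they mature.

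The WT library held 17410 cells after filtering, with a median of 2775 UMIs, and the KO library held 15457 cells with a median of 2009 UMIs. Haemoglobin transcripts took 11.1% of the UMIs of the kept WT cells and 22.9% of those of the KO cells, and 177 barcodes occurred in both libraries. Bicd2 itself gave 1316 UMIs (19.8 CPM, counts per 1000000) in WT and 553 UMIs (13.3 CPM) in KO cells, which does not check the deletion because these are not hepatocytes. Cells were grouped into clusters without the cell cycle genes and named from markers: T-like (6520 WT and 5583 KO cells), NK-ILC1-like (854 and 896), B-like (714 and 1866), mature neutrophil-like (2629 and 1368), immature neutrophil-like (1720 and 143), monocyte-macrophage-like (1768 and 1705), dendritic cell (DC)-like (659 and 710), plasmacytoid dendritic cell (pDC)-like (214 and 293) and erythroid-like (1506 and 994). A class of 424 WT and 11 KO cells with the granule genes Mpo and Elane, called early myeloid progenitor-like, was too small in KO for a comparison of genes. The 7 hepatocyte markers summed to between 3.40 CPM (WT immature neutrophil-like) and 49.3 CPM (KO pDC-like) in these classes.

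Cells carrying transcripts of several mitotic members were scarcer in the KO library. To compare cells at equal depth, each was thinned at random to 1000 UMIs, haemoglobin included, and a cell was counted as having the mitotic-gene signal when UMIs of at least 2 different mitotic members remained. In WT, 1861 of 15443 thinned cells had the signal (12.1%, 95% interval 11.5 to 12.6), and in KO 442 of 12847 did (3.44%, 3.13 to 3.77), a 3.50-fold lower share (3.17 to 3.88). Without thinning the shares were 24.1% and 9.13%. Cells under 1000 UMIs were left out, 1967 in WT and 2610 in KO, of which 381 and 693 were mature neutrophil-like. With haemoglobin removed before thinning, the log2 ratio of the shares, KO over WT, was -1.69 in place of -1.81. The signal built from the S-phase members was present in 9.01% of WT and 2.82% of KO cells (3.20-fold, 2.86 to 3.58; unthinned 22.9% and 8.82%), and both signals together in 5.41% and 0.981%. Of the WT cells, 10806 held no mitotic member and 2776 held exactly 1, so 2776 lay just below the threshold and 531, with 2 genes, just above it. In KO, 1864 cells held 1 gene and 226 held 2.

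Mature neutrophils have left the cell cycle, and their share is given as a comparison for the other classes. The mature neutrophil-like cells gave 1.96% in WT and 1.48% in KO (unthinned 5.63% and 1.75%, median depth 1698 and 994 UMIs). Their S-phase signal was 0.133% in WT and 0 of 675 KO cells, which allows up to 0.444% at a limit of 3 counts. The mitotic share is not free of the cells' own transcripts, because Kif23, a mitotic member, stood at 135 CPM in WT and 201 CPM in KO mature neutrophil-like cells. Without Kif23, Ube2c and Nusap1, an alternative chosen after their values were seen, it was 0.667% in WT and 0.148% in KO, against 2.35% in the KO T-like and 0.966% in the KO NK-ILC1-like cells. The pDC-like cells had the mitotic-gene signal in 3 of 191 WT and 2 of 250 KO cells.

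Among T-like cells the mitotic-gene signal was present in 760 of 5616 WT cells (13.5%, 12.6 to 14.5; unthinned 26.1%, median depth 2655 UMIs) and 129 of 4598 KO cells (2.81%, 2.35 to 3.33; unthinned 4.73%, median depth 1872 UMIs), a share 4.82-fold lower in KO (4.02 to 5.79). Among NK-ILC1-like cells, natural killer cells and related innate lymphocytes, it was present in 125 of 742 WT cells (16.8%, 14.2 to 19.7; unthinned 29.4%) and 13 of 725 KO cells (1.79%, 0.958 to 3.05; unthinned 5.02%), 9.40-fold lower (5.36 to 16.5). When the cell cycle genes were allowed to shape the clusters, the NK-ILC1-like difference was smaller, a log2 ratio of -1.91 in place of -3.23. Of the 129 KO T-like cells with the signal, 99 held 3 or more mitotic members, as did 6 of the 13 KO NK-ILC1-like cells and 0 of the 10 KO mature neutrophil-like cells. The 13 KO NK-ILC1-like cells had a median haemoglobin share of 29.3% of their UMIs, against 2.67% in the KO cells of that class without the signal and 0.634% in the WT cells with it; the part of haemoglobin-rich barcodes in this share was not tested.

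The immature neutrophil-like cells, which carry the granule genes Camp and Ltf, had the signal in 400 of 1629 WT cells (24.6%; unthinned 35.7%) and in 11 of 123 KO cells (8.94%, 4.55 to 15.4; unthinned 12.6%), 2.75-fold lower (1.55 to 4.86). The early myeloid progenitor-like cells had the highest share, 259 of 410 in WT (63.2%) and 5 of 9 in KO. DC-like cells had it in 14.9% of WT and 8.84% of KO cells (1.69-fold, 1.23 to 2.31; unthinned 29.7% and 21.3%). In monocyte-macrophage-like cells it was 3.73% and 2.24% (1.67-fold, 1.10 to 2.53, unthinned 16.4% and 9.91%). Over the alternative settings the log2 ratio of these shares, KO over WT, lay between -2.60 and -0.38. The 34 KO cells with the signal had a median haemoglobin share of 12.4%, against 1.63% in KO cells without it and 0.695% in WT cells with it. In B-like cells it was 2.82% and 1.53% (unthinned 9.38% and 5.73%), with an interval of the ratio, 0.994 to 3.43, that includes no difference; the 23 KO cells with it had a median haemoglobin share of 43.5%, against 0.840% in the 17 WT cells. The erythroid-like cells differed in the other direction, with 3.65% in WT and 8.15% in KO (unthinned 26.2% and 31.3%), while their S-phase signal was at 0.199% in WT and at 0 of 994 in KO.

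**Figure D1:**
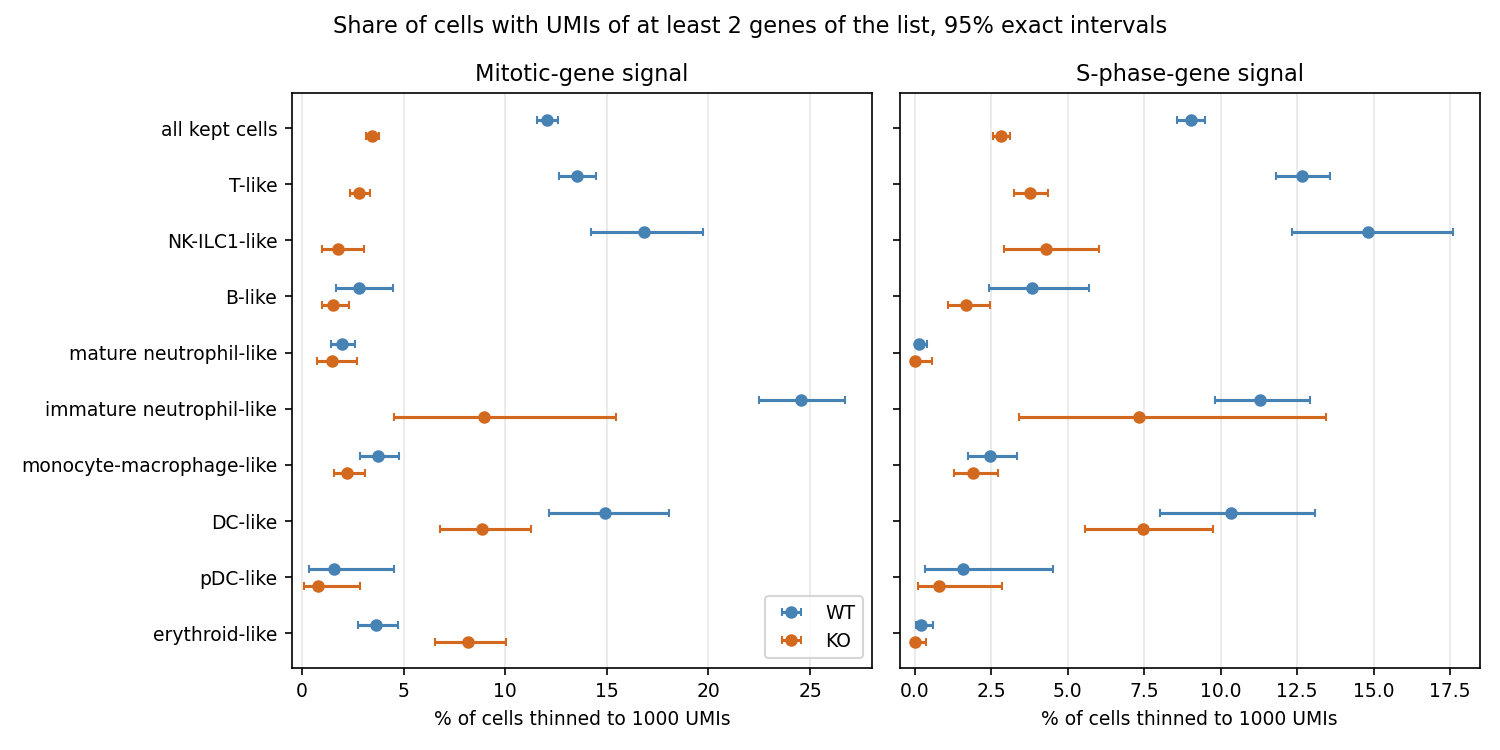
Share of cells thinned to 1000 UMIs with UMIs of at least 2 mitotic members (left) or at least 2 S-phase members (right), in percent on the horizontal axis, for all kept cells and for each cell class; points are the WT (blue) and KO (orange) libraries and bars are exact 95% counting intervals. The KO points lie to the left of the WT points in the T-like, NK-ILC1-like and immature neutrophil-like classes (13.5% against 2.81%, 16.8% against 1.79% and 24.6% against 8.94% on the left), and the erythroid-like class shows the opposite order on the left with almost no S-phase signal on the right.

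The 2 libraries differed in makeup, which also moves the overall share. Immature neutrophil-like cells were 9.88% of the kept cells in WT and 0.925% in KO, and 400 of the 1861 WT cells with the signal (21.5%) belonged to them, against 11 of 442 in KO (2.49%). Early myeloid progenitor-like cells held 259 of the 1861 WT cells with the signal (13.9%) and 5 of the 442 in KO (1.13%). With the KO share of each class weighted by the WT makeup, the overall KO share became 5.26%, against 12.1% in WT. This value includes the early myeloid progenitor-like class, whose KO share rested on 5 of 9 cells. With the WT share of each class weighted by the KO makeup, the overall WT share became 10.1%, against 3.44% in KO.

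The T-like class was held by different clusters in the 2 libraries. Cluster 1, led by Cd4, Slamf1 and Il1rl1, held 3380 of its WT and 144 of its KO cells, and cluster 0, led by Il4 and Zbtb16, held 622 and 3204. The signal was present in 6.51% of the WT cells of cluster 1 and 8 of 107 KO cells (7.48%, 3.28 to 14.2), and in 2.21% of the WT and 0.549% of the KO cells of cluster 0. In the Cd8a cluster that carries Gzmc and Xcl1 (cluster 6) it was 14.6% and 5.88%, in the Cd8b1 cluster with Dapl1 (cluster 12) 4.76% and 0.806%, in the Lef1, Ccr7 and Tcf7 cluster (cluster 8) 1.68% and 1.21%, and in the Foxp3 and Ikzf2 cluster of regulatory T cells (cluster 22) 57 of 272 and 7 of 47 cells. Cluster 17 was led by cell division genes, and 354 of its 470 WT cells and 65 of its 73 KO cells had the signal.

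Leaving out cluster 17, an alternative chosen after seeing the data, gave 7.89% of WT and 1.41% of KO T-like cells (5.58-fold, 4.3 to 7.24). With the KO share of each T-like cluster weighted by the cluster makeup of WT, cluster 17 included, the KO share was 13.1%, against 13.5% in WT. Cluster 17 is itself defined by partners of the members, so its size is not independent of the signal. With the WT shares weighted by the KO cluster makeup, it was 4.82%, against 2.81% in KO.

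Selecting T-like cells by single marker genes instead of clusters gave the same order. Cells with Cd4 and without Cd8 UMIs had the mitotic-gene signal in 14.5% of WT and 3.95% of KO cells (unthinned 33.0% and 7.81%), and cells with Cd8 and without Cd4 in 16.5% and 3.64% (unthinned 27.8% and 7.51%). Cells with a UMI of Zbtb16, the factor of innate-like T cells such as NKT cells, had it in 6.78% and 2.41% (unthinned 17.6% and 3.88%). Cells with Trdc, the gamma delta T cell receptor constant gene, had it in 27 of 165 WT cells and in 0 of 92 KO cells (unthinned 32.4% and 2.97%). A limit of 3 counts allows a KO share of up to 3.26%, and the exact interval reaches 3.93%. Foxp3 cells had it in 45 of 187 and 5 of 37 (unthinned 40.2% and 22.5%), with an interval of the ratio of 0.758 to 4.18 that includes no difference.

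All 24 mitotic members were at least 2-fold lower in the KO T-like cells and none was higher. UMIs were summed over the cells of a class, and log2 ratios are on a scale of CPM plus 1; in such sums, fewer dividing cells and less RNA per dividing cell cannot be told apart. In T-like cells 7.70% of all 13699 genes with at least 20 UMIs were past 2-fold lower and 2.93% past 2-fold higher in KO. The median log2 ratio was -2.0 over the mitotic members and -0.08 over all these genes. Of the 15 S-phase members, 9 were past 2-fold lower, with a median of -1.29. Haemoglobin transcripts took 3.45% of the UMIs of the WT and 8.84% of those of the KO T-like cells, and neutrophil transcripts also differed there: the 8 immature neutrophil markers summed to 698 CPM in WT and 34.4 CPM in KO, with none of them at 0. The estimated free RNA per cell held 0.238 mitotic UMIs in WT and 0.0558 in KO. The T-like cells held 47064 mitotic UMIs in 6520 WT and 6518 in 5583 KO cells. The makeup of free RNA was taken from all deposited barcodes, each with at least 500 UMIs, and not from empty droplets. Its difference between the libraries therefore follows that of the cells and does not check for free RNA.

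Among the kinases and cyclins that start mitosis, Cdk1, the catalytic kinase of mitotic entry, stood at 54.7 CPM in WT and 11.6 CPM in KO T-like cells (4.70-fold, 3.96 to 5.62). Its partners Ccnb1 (cyclin B1) and Ccnb2 (cyclin B2) stood at 27.7 and 4.57 CPM (6.06-fold, 4.62 to 8.10) and at 48.9 and 12.4 CPM (3.96-fold). Ccna2, the cyclin of S phase and G2, stood at 56.3 and 13 CPM (4.33-fold). Plk1, a kinase of spindle assembly and mitotic exit, and Aurka, the kinase of the spindle poles, stood at 29.5 and 8.27 CPM and at 25.3 and 5.54 CPM. Each of these was lower in KO with an interval clear of equality, and Ccnb1 was the most different of the 6.

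The chromosomal passenger complex corrects faulty spindle attachments, and its 3 members on the list were among the most different genes in T-like cells. Aurkb, its kinase, stood at 26.5 CPM in WT and 4.17 CPM in KO (6.34-fold, 4.78 to 8.59). Birc5 (survivin) stood at 87.5 and 17.3 CPM (5.07-fold, 4.40 to 5.86), and Cdca8 (borealin) at 69.6 and 14.4 CPM (4.82-fold). At the kinetochore, Cenpa, the centromeric histone, stood at 97.8 and 23.6 CPM, the motor Cenpe at 81.6 and 22.6 CPM and the large scaffold protein Cenpf at 105 and 26.0 CPM. The checkpoint kinases Bub1 and Bub1b, which hold anaphase until every chromosome is attached, stood at 22.3 and 5.22 CPM and at 40.5 and 8.75 CPM.

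Mki67 (Ki-67), which coats mitotic chromosomes, and Top2a, the enzyme that untangles DNA, were the most abundant mitotic members. In T-like cells Mki67 stood at 309 CPM in WT and 70.1 CPM in KO (4.40-fold, 4.10 to 4.73) and Top2a at 327 and 83.9 CPM (3.90-fold, 3.66 to 4.17). The spindle motor Kif11, its neighbour on the spindle Tpx2 and the midzone bundling protein Prc1 were between 4.16-fold and 4.39-fold lower, and Hmmr, a spindle protein, was 4.10-fold lower. The kinesins of cytokinesis differed, with Kif20a 3.90-fold and Kif23 3.11-fold lower. Smallest among the mitotic members were Nusap1, a microtubule-binding spindle protein, at 98.6 and 40.2 CPM (2.45-fold, 2.23 to 2.71), and Ube2c, the ubiquitin-conjugating enzyme of the anaphase-promoting complex, at 158 and 56.2 CPM (2.81-fold, 2.59 to 3.05).

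**Figure D2:**
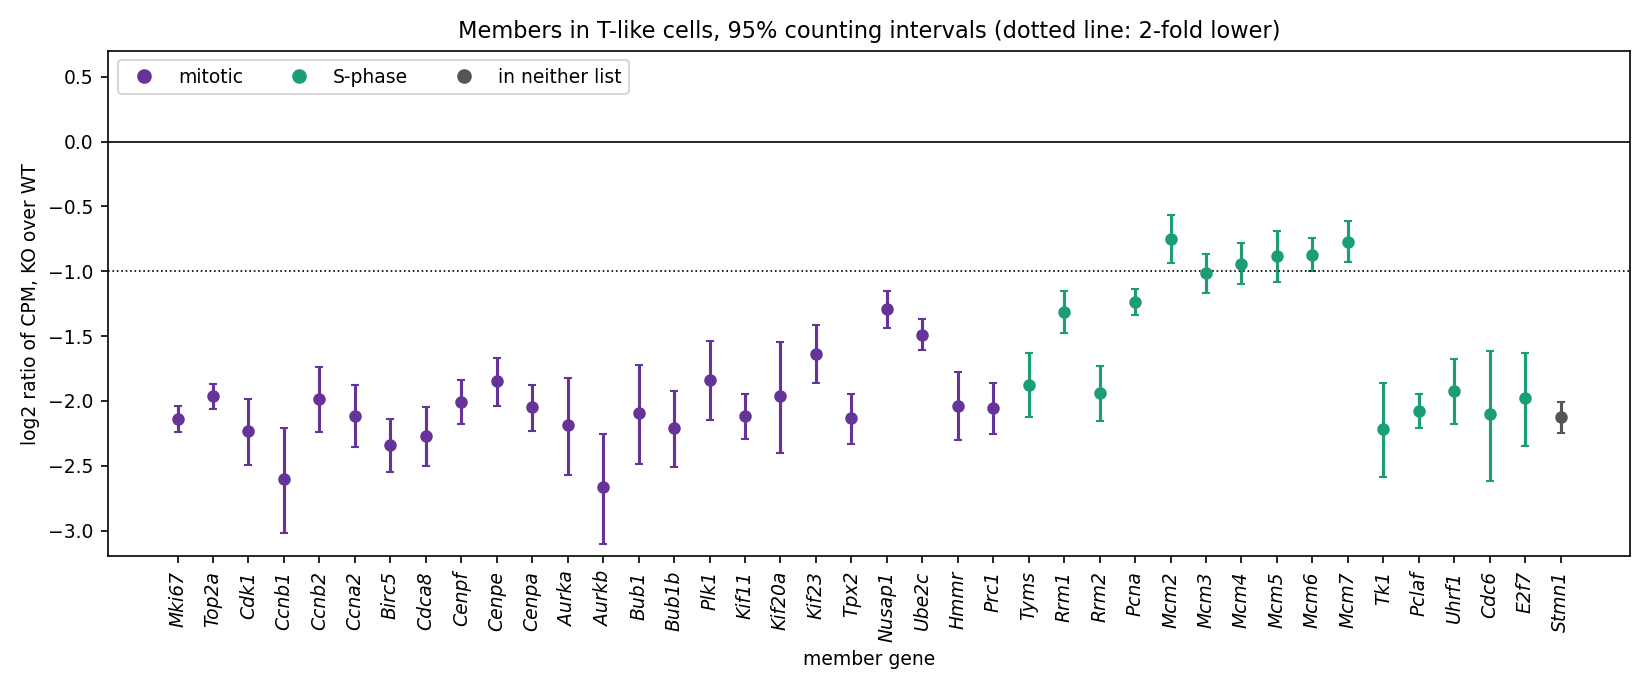
Log2 ratio of CPM in the KO over the WT library in T-like cells on the vertical axis for each member on the horizontal axis, with mitotic members in purple, S-phase members in green and Stmn1 in grey; bars are 95% counting intervals and the dotted line marks 2-fold lower. Mitotic members lie near a ratio of -2.0, Nusap1, Ube2c and Kif23 stand above the others, and the 6 Mcm genes lie at or above the dotted line.

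The S-phase members fell into separate ranges. The 6 subunits of the replicative helicase, Mcm2 to Mcm7, had log2 ratios of -1.0 to -0.73 in T-like cells (median -0.86). Mcm2 stood at 43.2 CPM in WT and 25.7 CPM in KO (1.68-fold, 1.48 to 1.91), Mcm3 at 77.4 and 38.3 CPM (2.02-fold, 1.83 to 2.24) and Mcm6 at 94.9 and 51.8 CPM (1.83-fold). Pcna, the sliding clamp of the polymerases, at 189 and 79.9 CPM, and Rrm1, the large subunit of ribonucleotide reductase, at 75.6 and 30.4 CPM, were 2.36-fold and 2.49-fold lower.

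The other 7 S-phase members had log2 ratios of -2.05 to -1.80 (median -1.84), the range of the mitotic genes. Rrm2, the small subunit of ribonucleotide reductase, stood at 65.9 and 17.2 CPM in T-like cells (3.84-fold, 3.32 to 4.45), and Tk1, which salvages thymidine, at 26.9 and 5.78 CPM (4.65-fold, 3.64 to 6.02). Pclaf, a PCNA-binding factor, was the most abundant of the 7 at 188 and 44.6 CPM (4.22-fold, 3.86 to 4.62). Tyms (thymidylate synthase), Uhrf1 (which brings the maintenance methyltransferase to new DNA), Cdc6 (which loads the helicase) and E2f7 (a repressor of E2F targets) were 3.67-fold, 3.79-fold, 4.29-fold and 3.95-fold lower. Stmn1, a protein that destabilises microtubules, stood at 225 and 51.4 CPM (4.37-fold, 4.03 to 4.75).

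The same division of the S-phase members appeared in other classes. The median log2 ratios of the Mcm genes and of the other 7 were -0.95 and -2.89 in NK-ILC1-like cells, -0.56 and -1.57 (5 of the 7 measured) in B-like cells, and -0.30 and -1.30 (6 measured) in monocyte-macrophage-like cells. In DC-like cells they were -0.28 and -0.54. Immature neutrophil-like cells had the opposite order, -1.03 for the Mcm genes and -0.62 for the other 7, on few KO counts: Mcm3 and Mcm6 rested on 3 UMIs each. The split into these ranges was made after the values were seen, so it describes these libraries only.

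S-phase members made up more of the member UMIs in the T-like and NK-ILC1-like cells of the KO library. Of the UMIs of the 39 listed mitotic and S-phase genes, 33.9% (33.6 to 34.3) were S-phase in WT T-like cells and 44.4% (43.5 to 45.3) in KO. In NK-ILC1-like cells the share was 32.3% (31.4 to 33.1) and 52.8% (49.9 to 55.6). With cell cycle genes used in the clustering, the log2 odds of S-phase UMIs in NK-ILC1-like cells, KO over WT, were 0.20 in place of 1.23. Monocyte-macrophage-like cells gave 36.7% and 41.4% and pDC-like cells 40.5% and 52.6%, the latter on 144 S-phase and 130 mitotic UMIs in KO.

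Over all 39 genes, other classes did not share that shift. In DC-like cells the S-phase share was 36.3% in WT and 34.4% in KO (log2 odds -0.12, -0.22 to -0.02). B-like cells gave 39.1% and 37.5%. Their log2 odds lay between -0.12 and 0.63 over 7 alternative settings, and below 0 in 2 of them. Ube2c and Nusap1 gave 84 and 68 of the 1119 mitotic UMIs of WT B-like cells, and 378 and 184 of 1270 in KO. The B-like share without these genes was not tested. Immature neutrophil-like cells gave 23.7% and 25.7%, with intervals that overlap. Erythroid-like cells had the lowest S-phase share, 9.55% in WT and 3.91% in KO. Ube2c and Nusap1 held 1081 and 664 of their 2168 mitotic UMIs in WT, and 1288 and 623 of 2041 in KO. Mature neutrophil-like cells gave 22.6% and 11.7%, and Kif23 held 645 of their 1319 mitotic UMIs in WT and 309 of 417 in KO. The shares of both classes without Ube2c, Nusap1 and Kif23 were not tested. The T-like clusters differed among themselves. Cluster 1 gave 47.5% and 50.3%, cluster 6 gave 32.8% and 33.8%, cluster 17 gave 29.97% and 32.4%, and cluster 0 gave 66.6% and 73.6%. Cluster 22 gave 28.3% and 30.5%, and cluster 12 gave 57.0% and 56.3%. Cluster 8 went the other way, with 60.1% and 50.9% (log2 odds -0.54, -0.91 to -0.16), against 0.64 over the class. None of these clusters rose by as many percentage points as the T-like class (10.4), and cluster 0 rose most (6.97). Cluster 0 gave 621 of the 24178 S-phase UMIs of the class in WT and 1684 of 5202 in KO. The part of this change of cluster weights in the class shift was not tested.

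**Figure D3:**
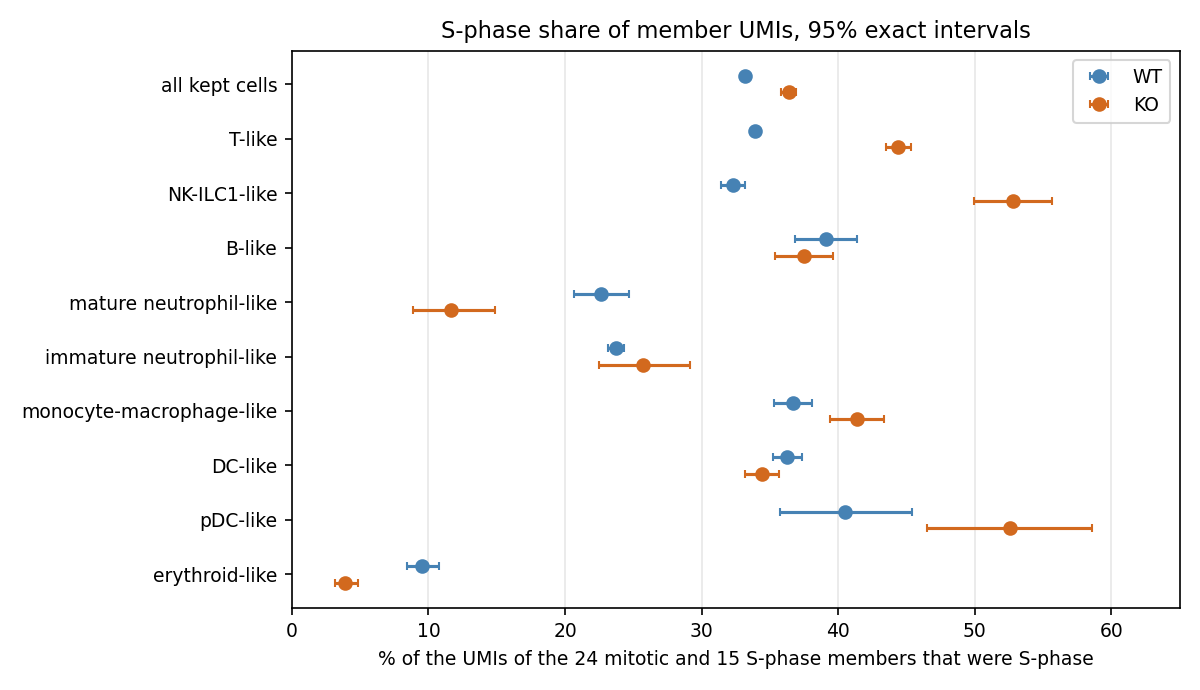
S-phase UMIs as a percentage of the UMIs of the 24 mitotic and 15 S-phase members (horizontal axis) in all kept cells and in each class, for the WT (blue) and KO (orange) libraries, with exact 95% counting intervals. The KO points lie to the right in T-like (44.4% against 33.9%) and NK-ILC1-like cells (52.8% against 32.3%) and to the left in mature neutrophil-like and erythroid-like cells. In KO, Kif23 alone held 309 of the 417 mitotic UMIs of mature neutrophil-like cells, and Ube2c alone 1288 of the 2041 of erythroid-like cells.

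In NK-ILC1-like cells all 24 mitotic members were again past 2-fold lower in KO and none was higher, with a median log2 ratio of -2.98, and 11 of 15 S-phase members were past 2-fold lower, with a median of -1.84. Of all genes measured in these cells 11.9% were past 2-fold lower and 2.94% higher, with a median of -0.19. Mki67 stood at 296 CPM in WT (1090 UMIs) and 18.9 CPM in KO (35 UMIs), 15.6-fold lower (11.2 to 22.5). Top2a stood at 377 and 24.4 CPM (15.5-fold, 11.5 to 21.3). Rrm2 differed most of all members, with 248 UMIs in WT and 5 in KO (24.9-fold, 10.5 to 77.2), and Pclaf stood at 217 and 16.2 CPM (13.3-fold, 9.28 to 19.9).

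Of the members, those that differed least in NK-ILC1-like cells were Mcm6, at 76.0 and 63.9 CPM with an interval of 0.956-fold to 1.49-fold that includes equality, and Mcm4 (1.68-fold, 1.27 to 2.24). Among the mitotic members they were Ube2c, at 146 and 65.5 CPM (2.22-fold), and Nusap1, at 106 and 46.6 CPM (2.28-fold). Haemoglobin took 4.00% of the UMIs of these cells in WT and 19.6% in KO. In the cells with at most 10% haemoglobin, Ube2c stood at 152 and 28.9 CPM and Mki67 at 315 and 22.8 CPM. When cells over 10% haemoglobin were left out and the rest clustered and named again, the median of the mitotic members was -2.42. That NK-ILC1-like class is not the same set of cells.

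In immature neutrophil-like cells 11 of 24 mitotic members were past 2-fold lower in KO and none was higher (median log2 ratio -0.96), and 5 of 15 S-phase members were lower (median -0.62, or -0.61 with Cdc6 at its bound), a count that includes Cdc6 at 0 KO UMIs, against 12.1% of all genes lower, 3.45% higher and a median of -0.10. Top2a stood at 280 CPM in WT and 192 CPM in KO (1.45-fold, 1.18 to 1.81) and Mki67 at 247 and 161 CPM (1.53-fold, 1.22 to 1.95). Larger differences were seen for Cenpa (3.74-fold, 2.02 to 7.85), Hmmr (3.33-fold) and Prc1 (3.29-fold, 1.83 to 6.63), which rested on 10, 6 and 11 KO UMIs. Cdc6 gave 50 UMIs in WT and 0 in KO, a difference that was not detectable at this depth because 3 KO UMIs would be 6.20 CPM, above the WT level of 6.08 CPM. Bub1 and E2f7 did not differ beyond their intervals (KO over WT 1.17, 0.572 to 2.15, and 1.06, 0.497 to 1.99).

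Within this class the signal lay almost wholly in the Fcnb cluster, the less mature one (cluster 14), with 386 of 773 WT cells (49.9%) and 11 of 52 KO cells (21.2%, 11.1 to 34.7). The Ltf, Cd177 and Ly6g cluster (cluster 13) had it in 14 of 856 WT and 0 of 71 KO cells. When cells over 10% haemoglobin were left out and the rest clustered and named again, the median of the mitotic members in the class was -0.57.

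The DC-like cells had the smallest median difference of the mitotic members among the classes with all 24 measured. None of the 24 mitotic members and 1 of the 15 S-phase members, Tk1 (28.2 and 9.21 CPM, 3.06-fold, 2.09 to 4.58), was past 2-fold lower, where 2.65% of all genes were lower and 2.40% higher; the medians were -0.33, -0.43 and, over all genes, -0.10. Stmn1 stood at 203 CPM in WT and 108 CPM in KO (1.88-fold, 1.67 to 2.12), Birc5 was 1.70-fold lower (1.38 to 2.11) and Tyms 1.71-fold (1.27 to 2.32). Mki67 stood at 170 CPM in WT and 127 CPM in KO (1.34-fold, 1.19 to 1.51). Ube2c (97.2 and 98.0 CPM), Hmmr, Nusap1 and Kif20a had KO over WT ratios of 1.01 to 1.09 with intervals that include equality.

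Haemoglobin took 4.86% of the UMIs of DC-like cells in WT and 12.4% in KO. In the DC-like cells with at most 10% haemoglobin, Mki67 stood at 180 and 177 CPM (KO over WT 0.986, 0.872 to 1.12) and Top2a at 197 and 215 CPM (1.10, 0.978 to 1.23). In the cells above 10%, Mki67 stood at 120 and 33.7 CPM. A separate setting left out cells over 10% haemoglobin and clustered and named the rest again. The median of the mitotic members in its DC-like class was 0.06. By cluster, the signal was present in 24.4% of WT and 17.8% of KO cells of the Xcr1 and Clec9a cluster of conventional type 1 dendritic cells (cluster 21) and in 9.33% and 4.57% of the Cd209a cluster (cluster 15).

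In monocyte-macrophage-like cells 13 of 24 mitotic members were past 2-fold lower and none was 2-fold higher (median -1.15), and 5 of 14 measured S-phase members were lower (median -0.39), against 4.81% lower, 2.10% higher and a median of -0.07 over all genes. Mki67 stood at 50.9 and 15.7 CPM (3.24-fold, 2.62 to 4.03) and Birc5 at 19.6 and 4.43 CPM (4.42-fold, 3.00 to 6.71). Pcna stood at 58.0 and 46.7 CPM (1.24-fold, 1.08 to 1.43), and Mcm3, Mcm4 and Rrm1 did not differ beyond their intervals.

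In B-like cells 15 of the 22 measured mitotic members were past 2-fold lower and 1, Ube2c, was past 2-fold higher (median -1.32), and 4 of 13 S-phase members were lower (median -0.87), against 6.36% lower, 1.36% higher and a median of -0.32 over all genes. Haemoglobin took 4.78% of the UMIs of B-like cells in WT and 22.9% in KO. Top2a stood at 113 and 37.6 CPM (3.01-fold, 2.42 to 3.75), Pclaf at 56.9 and 12.8 CPM (4.44-fold, 3.13 to 6.38) and Uhrf1 at 23.1 and 3.13 CPM (7.36-fold, 3.80 to 15.4). A separate B-lineage cluster with the plasma cell genes Jchain and Mzb1 (cluster 23, left unnamed) had the mitotic-gene signal in 21 of 103 WT cells (20.4%) and 6 of 200 KO cells (3.00%, 1.11 to 6.42).

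The remaining classes had few member UMIs. In mature neutrophil-like cells 5 of 12 measured mitotic members were past 2-fold lower and none was past 2-fold higher (6.00% of all genes lower, 3.80% higher), and 7 of 10 measured S-phase members were lower, with Top2a at 89 UMIs in WT and 5 in KO and Cdk1 at 27 and 0 UMIs, at least 2.90-fold lower against a floor of 3 UMIs over the KO sum. In pDC-like cells 4 of 6 measured mitotic members were lower and 1, Nusap1, was higher, and 1 of 6 S-phase members was lower (6.12% of all genes lower, 2.12% higher). In erythroid-like cells 2 of 8 were lower and 1, Ube2c, was higher, and 3 of 6 S-phase members were lower (7.76% lower, 4.97% higher).

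**Figure D4:**
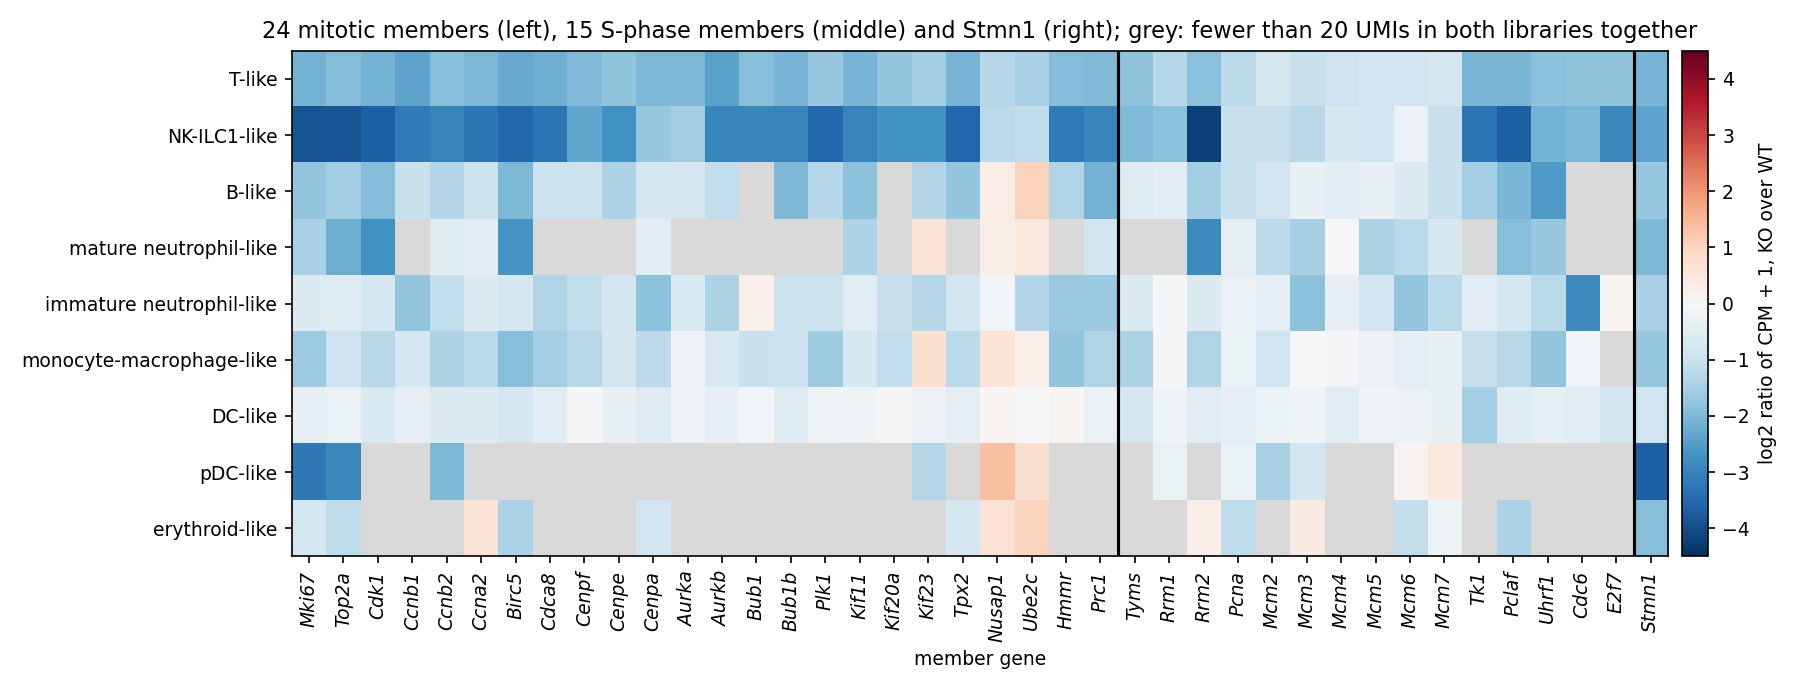
Log2 ratio of CPM + 1 in the KO over the WT library for each member (columns) in each cell class (rows), blue for lower and red for higher in KO, on a colour scale from -4.5 to 4.5; grey marks members with fewer than 20 UMIs in both libraries together. The NK-ILC1-like row is the darkest blue, the DC-like row is near white, and the Ube2c, Nusap1 and Kif23 columns hold most of the red cells.

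Ube2c, Nusap1 and Kif23 parted from the other mitotic members. Of the 24, they had the smallest differences over all kept cells, with log2 ratios of -0.40, -0.51 and -0.98, whereas the other 21 lay between -2.39 and -1.67. Ube2c was higher in KO in B-like cells (47.3 CPM in WT and 98.7 CPM in KO, ratio 2.09, 1.64 to 2.68) and in erythroid-like cells (199.5 and 403 CPM, ratio 2.02, 1.86 to 2.19), and in pDC-like cells (33.9 and 55.9 CPM, ratio 1.65, 1.04 to 2.67). In monocyte-macrophage-like cells it stood at 37.9 and 44.6 CPM (ratio 1.17, 1.002 to 1.38). Nusap1 was higher in erythroid-like cells (123 and 195 CPM, ratio 1.59, 1.42 to 1.78), monocyte-macrophage-like cells (15.3 and 24 CPM, ratio 1.57, 1.24 to 1.99) and pDC-like cells (8 and 27 UMIs, ratio 2.74, 1.21 to 6.98). In erythroid-like cells these 2 genes were by far the most abundant members, and Ccna2 there was also higher in KO (7.38 and 11.9 CPM, ratio 1.61, 1.01 to 2.58).

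In the KO library, but not in WT, most Ube2c and Nusap1 UMIs lay in cells rich in haemoglobin. Cells in which haemoglobin took over 10% of the UMIs held 21.5% of the Ube2c UMIs in WT and 82.4% in KO, and 20.9% and 73.8% of the Nusap1 UMIs. For Mki67 these shares were 7.75% and 23.4%, and for Ccna2 7.96% and 40.5%. In the B-like cells with at most 10% haemoglobin, Ube2c was lower in KO (38.6 and 18.8 CPM, KO over WT 0.488, 0.320 to 0.738), and in those above 10% it stood at 129 and 198 CPM. In T-like cells with at most 10% haemoglobin it stood at 158 and 29.1 CPM (0.184, 0.163 to 0.208) and in those above at 153 and 161 CPM. Nusap1 in T-like cells stood at 98.2 and 27.2 CPM in the first group of cells and at 103 and 90.5 CPM in the second.

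**Figure D5:**
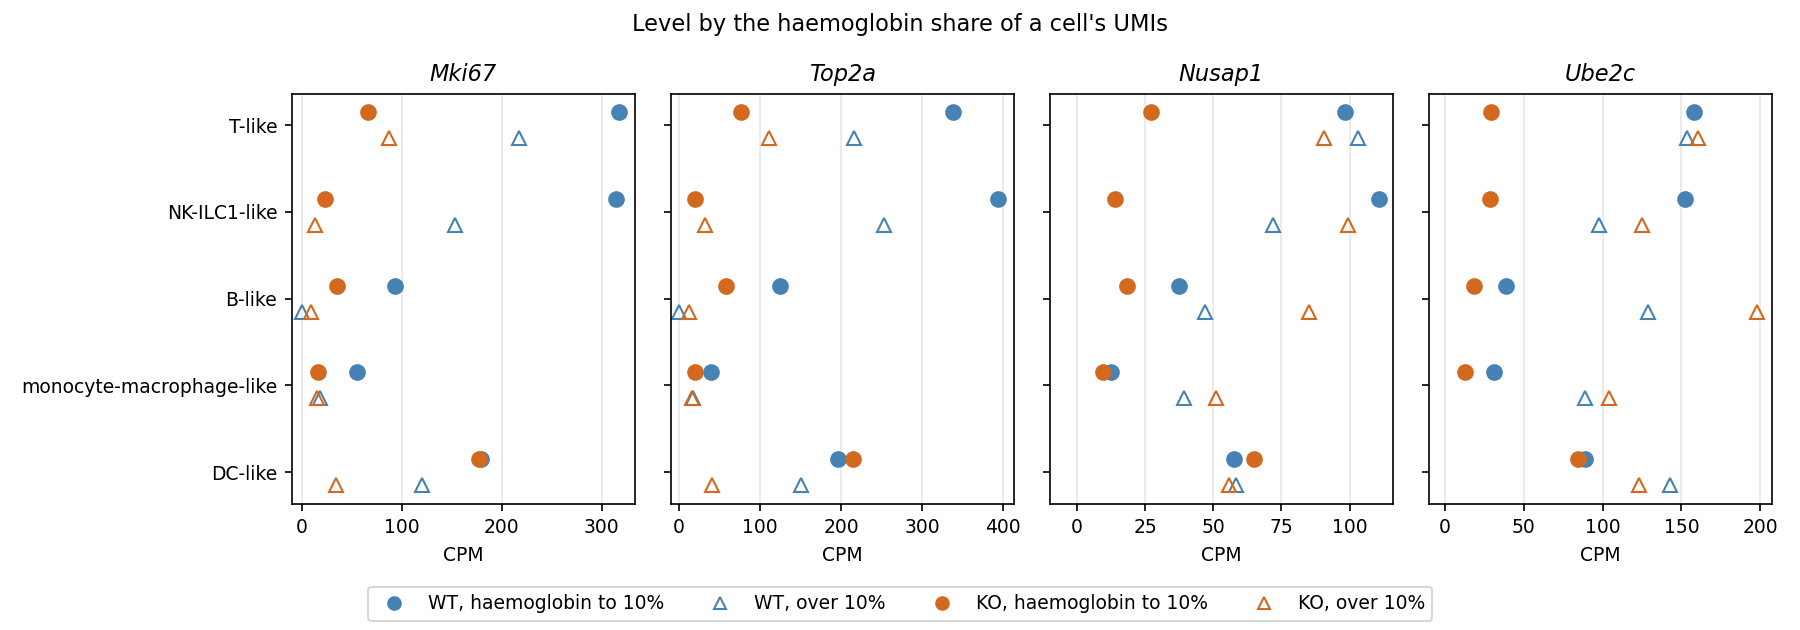
Level of Mki67, Top2a, Nusap1 and Ube2c (CPM, horizontal axes) in 5 cell classes, in cells with at most 10% haemoglobin UMIs (filled circles) and over 10% (open triangles), for the WT (blue) and KO (orange) libraries; values are sums over cells, with no error drawn. For Ube2c in T-like cells the KO circle lies at 29.1 CPM and the KO triangle at 161 CPM, while for Mki67 the KO symbols lie at 65.8 and 87.0 CPM.

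Kif23 did not follow haemoglobin: cells over 10% held 7.23% of its UMIs in WT and 25.8% in KO, about the same as Mki67. It was the only one of the 24 mitotic members to exceed 100 CPM in mature neutrophil-like cells, at 135 CPM in WT and 201 CPM in KO (ratio 1.49, 1.30 to 1.71), where Mki67 stood at 16.1 and 5.21 CPM. In those with at most 10% haemoglobin it stood at 140 and 213 CPM (1.52, 1.32 to 1.75). In monocyte-macrophage-like cells Kif23 stood at 15.4 and 26.3 CPM (ratio 1.71, 1.36 to 2.15).

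An alternative chosen after their values were seen left these 3 genes out of the mitotic list, as above for mature neutrophil-like and B-like cells. It also left almost no erythroid-like cell with the signal. Erythroid-like cells had it in 2 of 1505 in WT and 1 of 994 in KO (WT over KO 1.32-fold, 0.120 to 14.5), too few for a direction. Over all kept cells the shares were 10.7% and 1.90% (5.64-fold, 4.94 to 6.44), in T-like cells 12.4% and 2.35% (5.30-fold, 4.34 to 6.46) and in NK-ILC1-like cells 16.4% and 0.966% (17.03-fold, 8.01 to 36.2).

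Cells with a UMI of Mki67 or Top2a were used to describe the remaining members per positive cell. After thinning, 999 of 5616 WT T-like cells (17.8%) and 162 of 4598 KO cells (3.52%) had such a UMI. In them, the other 22 mitotic members averaged 3.40 UMIs in a WT cell and 2.99 UMIs in a KO cell (ratio 0.880, 0.799 to 0.968), and the 15 S-phase members 1.93 and 2.17 (1.12, 1.00 to 1.26). Stmn1 gave 0.476 and 0.494 UMIs (1.04, 0.807 to 1.32). Mki67 and Top2a are members themselves, so a cell with less member RNA is less often counted as positive, and these means do not separate fewer dividing cells from less RNA per cell.

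DC-like and immature neutrophil-like cells gave mitotic values per positive cell that did not differ beyond their intervals, 2.90 and 2.81 UMIs (0.968, 0.788 to 1.19) and 3.41 and 3.25 UMIs (0.952, 0.674 to 1.31). NK-ILC1-like cells gave 3.69 in WT and 1.94 in KO (0.526, 0.358 to 0.747), on 17 KO cells. Monocyte-macrophage-like cells gave the opposite, 1.73 in 80 WT cells and 3.13 in 39 KO cells (1.81, 1.41 to 2.33), with S-phase members at 0.738 and 1.56 (2.12, 1.46 to 3.09). A smaller share of these cells was positive in KO (2.56% against 5.14%), and the mean of member UMIs per positive cell was higher.

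T-like cells without a UMI of Mki67 or Top2a also held fewer member UMIs in KO. Per 100 such cells the other mitotic members gave 25.9 UMIs in WT and 9.83 in KO (2.63-fold, 2.36 to 2.94), and the S-phase members 46.7 and 25 (1.87-fold, 1.74 to 2.01). In NK-ILC1-like cells the S-phase members gave 41.5 and 29.9 per 100 cells (1.39-fold). In erythroid-like cells the mitotic members gave 37.0 and 64.0.

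Mitotic and S-phase genes are read from promoters of different design. The CHR element (TTTGAA) with nearby CCAAT boxes, bound by MuvB complexes and NF-Y, is known from mitotic genes, and the E2F site from replication genes. Promoters from 250 bases before to 50 bases after the transcription start were taken from RefSeq on build GRCm38.p6 for 34 of the 40 members; Ccna2, Aurkb, Kif20a, Tpx2, Mcm4 and Stmn1 had no entry. The authors' build was mm39, per the submitters' processing notes, so the coordinates below are those of the promoter table and not of the count files. Each motif was searched on both strands, the E2F site as TTTGGCGC, TTTCGCGC or TTTCCCGC, and overlapping matches were all counted.

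Of 21 promoters of 20 mitotic members, 16 (76.2%) held TTTGAA, against 1 of 16 promoters (6.25%) of 14 S-phase members and 17.9% of all 32851 promoters. CCAAT was held by 19 of 21 (90.5%), 13 of 16 (81.3%) and 37.4%. An E2F site was held by 1 of 21 (4.76%), 8 of 16 and 1.84%. 15 of the 20 mitotic members held both CCAAT and TTTGAA. Mcm2 was the S-phase member with TTTGAA and Cdk1 the mitotic member with an E2F site. Birc5 and Nusap1 among the mitotic members and Tk1 and Tyms among the S-phase members held none of the 3 motifs in this window, although Birc5 was 5.07-fold and Tk1 4.65-fold lower in KO T-like cells.

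The 150 bases before the start are shown, in the direction of transcription, for the most abundant mitotic members and Cdk1, and for the haemoglobin-linked genes Ube2c and Nusap1. Of the S-phase genes, Mcm6 is shown for the Mcm range and Cdc6 for the other 7. Neither Pcna nor Rrm1 is shown. Capitals mark the CCAAT box, the CHR element and the E2F site, on either strand.
Mki67 (chr7:135716380-135716529, minus strand): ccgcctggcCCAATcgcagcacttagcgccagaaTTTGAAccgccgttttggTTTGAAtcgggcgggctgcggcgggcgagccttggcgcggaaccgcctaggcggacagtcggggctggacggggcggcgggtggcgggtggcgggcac
Top2a (chr11:99024190-99024339, minus strand): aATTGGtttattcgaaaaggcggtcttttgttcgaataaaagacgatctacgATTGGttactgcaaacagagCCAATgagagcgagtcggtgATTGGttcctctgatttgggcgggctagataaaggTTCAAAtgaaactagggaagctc
Cdk1 (chr10:69352913-69353062, minus strand): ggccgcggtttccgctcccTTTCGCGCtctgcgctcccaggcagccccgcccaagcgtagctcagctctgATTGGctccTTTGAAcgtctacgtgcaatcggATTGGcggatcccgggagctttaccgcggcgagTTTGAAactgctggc
Ube2c (chr2:164769779-164769928, plus strand): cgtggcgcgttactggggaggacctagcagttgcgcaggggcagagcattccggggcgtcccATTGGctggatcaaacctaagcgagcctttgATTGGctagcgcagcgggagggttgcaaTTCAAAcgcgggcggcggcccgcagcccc
Nusap1 (chr2:119618148-119618297, plus strand): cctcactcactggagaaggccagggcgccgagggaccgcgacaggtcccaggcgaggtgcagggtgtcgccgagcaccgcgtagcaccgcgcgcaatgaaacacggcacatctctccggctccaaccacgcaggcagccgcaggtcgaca
Mcm6 (chr1:128359706-128359855, minus strand): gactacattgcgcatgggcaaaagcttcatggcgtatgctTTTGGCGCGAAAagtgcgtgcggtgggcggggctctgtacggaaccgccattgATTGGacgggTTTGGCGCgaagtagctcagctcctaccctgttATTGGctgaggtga
Cdc6 (chr11:98908001-98908150, plus strand): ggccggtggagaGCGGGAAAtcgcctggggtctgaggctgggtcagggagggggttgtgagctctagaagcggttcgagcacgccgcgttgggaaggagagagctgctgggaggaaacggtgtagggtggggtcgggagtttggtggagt

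The Mki67 and Cdk1 stretches each show 2 copies of the CHR element, and Top2a shows 4 CCAAT boxes before 1 CHR element close to the start. Ube2c shows 2 CCAAT boxes and 1 CHR element, like those genes, and the Nusap1 stretch shows no capitals. Mcm6 shows E2F sites in 2 places, the first with matches on both strands that overlap and the second with 1 match, and Cdc6 shows 1 E2F site. A match is a description of the letters and says nothing on binding in these cells.

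Cell cycle genes outside the 40 members were counted in fixed lists. In T-like cells 46 of 50 other mitotic genes were past 2-fold lower in KO and none was higher (median log2 ratio -1.82), and 32 of 40 other replication genes were lower (median -1.32). Over all genes in T-like cells, 7.70% were past 2-fold lower and 2.93% higher. Cenpm, a kinetochore protein, stood at 11.7 and 1.69 CPM (6.94-fold, 4.45 to 11.4), Cdca3 at 40.2 and 7.54 CPM (5.33-fold) and Cdca2 at 42.1 and 8.02 CPM (5.25-fold). The smallest differences among the mitotic genes were those of Smc4, a condensin subunit (342 and 283 CPM, 1.21-fold), Cdc25b (1.51-fold) and Pttg1 (1.58-fold). Among the replication genes E2f8, Clspn and Asf1b were 4.83-fold, 3.84-fold and 3.63-fold lower, and Cdt1, Pold1 and Rpa2 were 1.16-fold, 1.34-fold and 1.43-fold lower.

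The same lists were counted in the other classes. In all kept cells, 5.19% of all genes were past 2-fold lower and 1.90% higher in KO; 21 of 24 mitotic members (median -1.94) and 13 of 15 S-phase members (median -1.31) were lower and none was higher. The other mitotic genes were lower in 47 of 50 measured in NK-ILC1-like cells (median -2.56), 23 of 35 in B-like cells, 14 of 47 in monocyte-macrophage-like cells, 5 of 17 in mature neutrophil-like cells, 4 of 9 in pDC-like cells, 3 of 9 in erythroid-like cells and 0 of 50 in DC-like cells. The other replication genes were lower in 28 of 39, 10 of 31, 2 of 35, 2 of 15, 1 of 11, 3 of 6 and 2 of 40 in the same order. Of these 2 lists, 1 gene was past 2-fold higher in any class, Ect2, in mature neutrophil-like cells (29 and 35 UMIs, ratio 3.75, 2.23 to 6.36). Ect2 is an exchange factor that acts in cytokinesis, as does the kinesin Kif23. It was named after its value was seen. G1 genes were lower in 2 of 6, 3 of 6, 0 of 7, 0 of 5, 0 of 5, 2 of 4 and 0 of 7 and brakes in 2 of 12, 1 of 11, 1 of 12, 1 of 11, 1 of 11, 2 of 10 and 0 of 12. Over all genes of these classes, 11.9%, 6.36%, 4.81%, 6.00%, 6.12%, 7.76% and 2.65% were past 2-fold lower, in the same order.

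The genes that act before S phase were counted in the same way, against 7.70% of all genes lower and 2.93% higher in T-like cells. Of the 7 measured G1 cyclins, their kinases and Myc, 1 was past 2-fold lower in KO T-like cells and none was higher (median -0.32). It was Cdk6, a kinase of G1, at 295 and 97.8 CPM (3.01-fold, 2.83 to 3.20). Its partners Ccnd3 (cyclin D3) and Ccnd2 (cyclin D2) were higher in KO, at 1164 and 2044 CPM (ratio 1.76, 1.73 to 1.79) and at 533 and 785 CPM (1.47, 1.43 to 1.51), and the whole list summed to 2123 CPM in WT and 3029 CPM in KO. Myc and Cdk2 were 1.43-fold and 1.33-fold lower. Ccnd3 was also past 2-fold higher in NK-ILC1-like cells (724 and 1524 CPM, ratio 2.10, 1.99 to 2.22) and in erythroid-like cells (26.6 and 66.0 CPM, ratio 2.48, 2.0 to 3.09).

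Of the 13 measured brakes of the cycle, 4 were past 2-fold lower in KO T-like cells and none was past 2-fold higher (median -0.63). The shares over all genes in these cells were 7.70% lower and 2.93% higher. Cdkn1a (p21), an inhibitor of cyclin-dependent kinases, gave 694 UMIs in WT and 22 in KO (30.3 and 1.77 CPM, 17.1-fold, 11.2 to 27.5), and Cdkn2a, which encodes p16 and p19ARF, gave 366 and 13 UMIs (15.3-fold, 8.84 to 29.0). Cdkn2c (p18) was 3.49-fold lower. Cdkn1b (p27) and Btg2, which hold resting lymphocytes out of the cycle, were higher in KO, with ratios of 1.42 (1.33 to 1.51) and 1.41 (1.34 to 1.5), and Trp53inp1 had a ratio of 1.30.

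In immature neutrophil-like cells 18 of 50 other mitotic genes and 10 of 38 measured replication genes were past 2-fold lower in KO (medians -0.87 and -0.54, or -0.79 and -0.43 with genes at 0 set to their bound) and none was past 2-fold higher. Over all genes of this class, 12.1% were past 2-fold lower and 3.45% higher. Cdca5 and Rfc5 gave 64 and 57 UMIs in WT and 0 in KO, on KO sums so small that 3 UMIs amount to 6.20 CPM. Ska1 and Cep55, which act at the kinetochore and in the final cut between daughter cells, gave 132 and 1 and 163 and 2 UMIs. Pttg1, Cdca2 and Foxm1 and the replication genes Prim1, Pold1 and E2f1 had KO over WT ratios above 1 with intervals that include equality. Of 5 measured G1 genes, Cdk4 gave 89 UMIs in WT and 1 in KO (5.23-fold, 0.915 to 209, which includes equality), and Ccnd2 was higher (14.2 and 37.2 CPM, ratio 2.62, 1.5 to 4.32), and of 12 brakes 1, Cdkn2c, was past 2-fold lower (2.51-fold, 0.964 to 9.33).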

How the data were processed

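The deposited matrices hold UMI counts per gene and cell barcode, made by the authors with Cell Ranger (version 6.0.1 per the submitters' processing notes, 8.0.1 per the file headers) on build mm39; the notes also name Seurat 4.3.0. Barcodes with at least 200 genes and at most 20% mitochondrial UMIs were kept, 20167 in WT and 17675 in KO. Scrublet in scanpy 1.11.5 marked 13.7% and 12.5% of these as doublets, which were removed. Cells were clustered (2000 variable genes without cell cycle genes, 30 principal components, 15 neighbours, Leiden resolution 1.0). A cluster was named from at least 3 markers that were 1.5-fold over other cells in at least 10% of its cells; that fold, and the separation of 95 WT and 32 KO basophil-like cells from the progenitor-like cluster, were set after the clusters were seen. Cells without a class, these basophil-like cells included, were 402 in WT and 1888 in KO. They held 52 of the 1861 WT and 76 of the 442 KO cells with the mitotic-gene signal. Classes needed 100 cells per library, and log2 ratios (KO over WT, CPM + 1) at least 20 UMIs in both libraries together. Intervals (exact Clopper-Pearson for shares, exact conditional binomial or Poisson for counts, log-normal for ratios of shares) are at 95%. A 0 was given the limit of 3 counts. edgeR 4.0.16 and DESeq2 1.42.0 served only as alternative scalings. The calculations were tested on simulated data.

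All 40 members could be named. Of the other cell cycle lists, the 3 highest and 3 lowest log2 ratios in T-like and immature neutrophil-like cells were named. The members and lists were chosen with earlier results of these data known. A gene that the rule for named genes selected is not reported here.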

Additional observations from a re-analysis of the deposited data

Results flagged for a closer look

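Some members were higher in the KO library in at least 1 class, with an interval clear of equality, while they were lower with such an interval in another class. Ube2c was higher in this way in 4 classes, Nusap1 in 3, Kif23 in 2 and Ccna2 in 1. For each gene the class with its highest ratio is given below. None of these differences between classes was tested. The log2 ratio of Ube2c in B-like cells was 1.05, of Nusap1 in pDC-like cells 1.36, of Kif23 in monocyte-macrophage-like cells 0.73 and of Ccna2 in erythroid-like cells 0.62. All 4 genes were lower in KO in T-like and NK-ILC1-like cells. The share of erythroid-like cells with the mitotic-gene signal had a log2 ratio of 1.16, against -2.27 in T-like and -3.23 in NK-ILC1-like cells.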

How the results depend on the processing

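Of 219 values for all kept, T-like, NK-ILC1-like and immature neutrophil-like cells under the alternatives, 168 moved by less than their interval, 51 moved further and none changed direction; the cause was not tested. All values here are log2 ratios, KO over WT. Leaving out cells over 10% haemoglobin, keeping doublets and the stricter barcode filter each meant clustering and naming the cells again. The mitotic-gene signal over all kept cells (-1.81) was -2.11 with at least 500 genes and at most 10% mitochondrial UMIs, -2.56 without cells over 10% haemoglobin, -1.40 not thinned, -2.20 at 500 UMIs, -0.74 and -2.36 with at least 1 and 3 genes, and -2.50 without Ube2c, Nusap1 and Kif23. The S-phase signal (-1.68) was -1.37 not thinned, -2.09 at 500 UMIs, and -0.62 and -2.13 with 1 and 3 genes. The median of the mitotic members (-1.94) was -1.79 without cells over 10% haemoglobin, -1.76 with totals without haemoglobin and -1.32 with a pseudocount of 10 CPM, and that of the S-phase members (-1.31) was -0.99 with the last. S-phase to mitotic UMIs (0.20) gave 0.35 with the stricter barcode filter and 0.56 without cells over 10% haemoglobin.

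In T-like cells the mitotic-gene signal (-2.27) was -2.92 with doublets kept, -2.80 with the stricter barcode filter, -2.76 without cells over 10% haemoglobin and -1.53 with 1 gene. The S-phase signal (-1.75) was -2.06 with doublets kept, -1.50 not thinned, -2.14 at 500 UMIs, and -0.72 and -2.17 with 1 and 3 genes. The mitotic median (-2.0) was -2.36, -2.13 and -2.33 with doublets kept, the stricter filter and without cells over 10% haemoglobin, -1.83 with naming at 2-fold (chosen after seeing the data) and -1.46 with the larger pseudocount. S-phase to mitotic UMIs (0.64) gave 0.72, 0.75 and 0.99 under the first 3 of these and 0.47 with a marker gate.

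In NK-ILC1-like cells, clustering with cell cycle genes gave -1.91 for the mitotic-gene signal (-3.23), -1.04 for the S-phase signal (-1.79), -1.79 and -0.76 for the medians (-2.98 and -1.84) and 0.20 for S-phase to mitotic UMIs (1.23). The mitotic-gene signal was -1.26 and -4.15 with 1 and 3 genes and -4.09 without the 3 genes, and the S-phase signal -0.54 and -2.91 with 1 and 3 genes. The mitotic median was -2.42 without cells over 10% haemoglobin, -3.27 with a pseudocount of 0.1 CPM and -1.99 with 10 CPM. In immature neutrophil-like cells the S-phase signal (-0.63) was -1.60 not thinned and -3.07 at 500 UMIs, and the mitotic median (-0.96) was -0.57 without cells over 10% haemoglobin. Of the other classes, the DC-like mitotic median (-0.33) turned to 0.056 without cells over 10% haemoglobin, and the erythroid-like mitotic-gene signal (1.16) was -0.40 (-3.86 to 3.06) without the 3 genes, on 3 cells in all and so without a direction. Values whose own interval included 0 also crossed it in places. The mitotic-gene signal of mature neutrophil-like cells (-0.40) was 0.39 with a marker gate, that of B-like cells (-0.88) 0.17 with 1 gene and that of pDC-like cells (-0.97) 0.14 with haemoglobin removed before thinning. The S-phase signal of pDC-like cells (-0.97) was 0.10 with 1 gene, and that of monocyte-macrophage-like cells 0.031 when clustered with cell cycle genes. The mitotic median was 0.45 with a minimum count of 100 and 0.24 with free RNA subtracted in mature neutrophil-like cells (-0.70), and 0.67 and 0.12 in erythroid-like cells (-0.79), whose S-phase median (-0.66) was 0.63 with free RNA subtracted. No paired analysis was possible because each genotype had 1 library. Other scalings moved the median of all genes by 0.29 to 0.32 in B-like and by 0.18 to 0.24 in NK-ILC1-like cells.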
